A study of Mus musculus with 48 samples.

Results

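Imprinted genes are expressed mainly from the copy inherited from 1 parent, and the 10 followed here were H19, Igf2, Cdkn1c, Peg3, Mest, Grb10, Meg3, Plagl1, Igf2r and Impact. They were chosen by name as well-known imprinted genes of the mouse, and all 10 were among the 20300 genes of the whole-tumor mix. Only 7 of them were among the 14363 genes of the companion CD11b+ table. Imprinting is set by DNA methylation laid down in the germ line at control regions, and many of these genes act on fetal growth. Their levels are usually high in the embryo and placenta and drop in most adult tissues, and tumors often regain some of them. Which parental copy gave each transcript was not analysed here.

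GL261 glioblastoma cells carrying a short hairpin RNA against P-selectin (shSELP) or a negative control hairpin (shNC) were grown in the brains of male C57BL/6 mice aged 6 weeks. On day 16, CD11b+ cells, the remaining CD45+ cells and cancer cells were isolated and mixed in equal amounts, giving 2 shNC and 2 shSELP libraries of 3' single-cell RNA-seq. A companion experiment sequenced CD11b+ cells alone on day 21, with 1 library per genotype; these days are those of the labels, and the methods give day 17 instead. The methods describe pooling 3 brains per group, and the labels do not say whether the 2 libraries of a genotype came from separate pools, so every p-value below measures the spread between libraries only. Each library was read in 8 sequencing entries, 48 in all, which were pooled and are not replicates.

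The mix held 2289, 2297, 2293 and 2293 cells in shNC 1, shNC 2, shSELP 1 and shSELP 2, with 22945972, 22626413, 17398121 and 25589350 UMIs. In what follows, 4 values in a row are always in this order of libraries. A filter at 500 genes and 10% mitochondrial UMIs kept 2183, 2179, 2190 and 2174 cells and left out 446. The shSELP 1 library was the shallowest, with a median of 5887 UMIs per cell against 9015, 7579 and 9388 in the other 3. The same barcode occurred in more than 1 mix library 5 times and in both CD11b+ libraries 3 times. Every member had at least 1 UMI in every mix library.

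Cells were sorted into classes by fixed marker genes, none of them a member. Tumor cells numbered 238, 203, 59 and 99, with 3490440, 3037671, 739669 and 720239 UMIs. The 7 tumor markers used for sorting summed to 2330, 1818, 1691 and 1723 CPM (counts scaled to the summed UMIs of the class) in tumor cells and to 224, 230, 211 and 233 CPM in immune cells. Among these 7, Chd7 was higher in immune cells (196 CPM) than in tumor cells (139 CPM). The sum of the sorting markers is high by construction, so other genes are needed to check the sorting. The 7 tumor markers kept out of the sorting gave this check, with 870, 994, 915 and 1154 CPM in tumor cells against 15.7, 21.9, 20.3 and 24.3 CPM in immune cells. The mice were male, and 4 Y-linked genes gave 11651 of 63108419 UMIs in immune cells but only 19 of 7988019 UMIs in tumor cells, so few host cells sat among the tumor cells. Leukocyte markers summed to 36.4, 23.4, 20.3 and 38.9 CPM in the tumor cells.

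Most host cells were grouped as immune or stromal cells. Oligodendrocytes and astrocytes were kept apart from both groups. Immune cells numbered 1594, 1611, 1359 and 1650, and most were macrophages (978, 879, 610 and 943) or T cells (446, 451, 413 and 459). Microglia numbered 50, 63, 224 and 84. Stromal cells, mostly endothelial and mural, numbered 28, 41, 410 and 102, so shSELP 1 alone supplied most of them. No doublet caller was run. Instead, 835 cells that showed markers of more than 1 class were left out, as were 330 with no class and 83 between the leukocyte limits. The rule for scoring markers and its limits were set after the data had been seen.

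Tumor cells were called cycling when 17 cell-cycle genes together exceeded 20 per 10000 UMIs, a limit also set after seeing the data. This gave 58, 43, 20 and 53 cycling and 180, 160, 39 and 46 non-cycling tumor cells. By count, the fewest cycling cells were in shSELP 1, which also had the fewest tumor cells. As a share of tumor cells, cycling cells were more frequent in both shSELP libraries than in either shNC library, which was not tested. Near the limit, between 15 and 25 per 10000 UMIs, there were 40 cells. The cycle genes summed to 1217, 1104, 1543 and 2249 CPM in tumor cells, higher in both shSELP libraries than in either shNC library, which was not tested. The tumor cells of shSELP 2 were also shallow, with a median of 3834 UMIs against 15543, 16110 and 12104.

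Selp, the gene targeted by the hairpin, was hardly seen in the tumor cells. It gave 1, 1, 0 and 1 UMIs there, so its knockdown in tumor cells could not be measured. In endothelial cells, where Selp is normally made, it gave 8, 12, 0 and 4 UMIs, or 89.7, 54.7, 0 and 8.36 CPM. In macrophages Selp gave 3, 3, 21 and 9 UMIs, with 12 of the 21 from 1 cell. These endothelial and macrophage cells were of the host and did not carry the hairpin.

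The 10 genes lie in several imprinted clusters of the mouse genome (GRCm38/mm10), which matters for reading their counts. H19 (chr7:142575529-142578143, minus strand) lies 72623 bases from Igf2 (chr7:142650766-142666816, minus strand), and the 2 share enhancers. Cdkn1c (chr7:143458339-143461050, minus strand) lies 40495 bases from Phlda2 and 161790 bases from Kcnq1ot1. Peg3 (chr7:6703892-6730431, minus strand) starts 147 bases from Usp29 on the opposite strand. Meg3 (chr12:109541001-109571726, plus strand) lies 77665 bases from Dlk1, and Grb10 (chr11:11930508-12038683, minus strand) 32364 bases from Ddc. Mest overlaps Copg2 and Igf2r overlaps the noncoding Airn, and whether the counting kept strands apart was not stated, so a few UMIs of these genes may belong to the partner.

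Tumor cells were first compared with the immune cells of the same libraries. H19, Peg3 and Plagl1 marked the tumor cells strongly, Mest did so more weakly, and Igf2r went the other way. Cdkn1c and Impact were only modestly higher in tumor cells. Igf2, Grb10 and Meg3 had too few UMIs in these classes to be tested. Every tested member kept its direction in all 4 libraries. The levels of all 10 in each class are drawn in the figure of member levels.

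**Figure D1:**
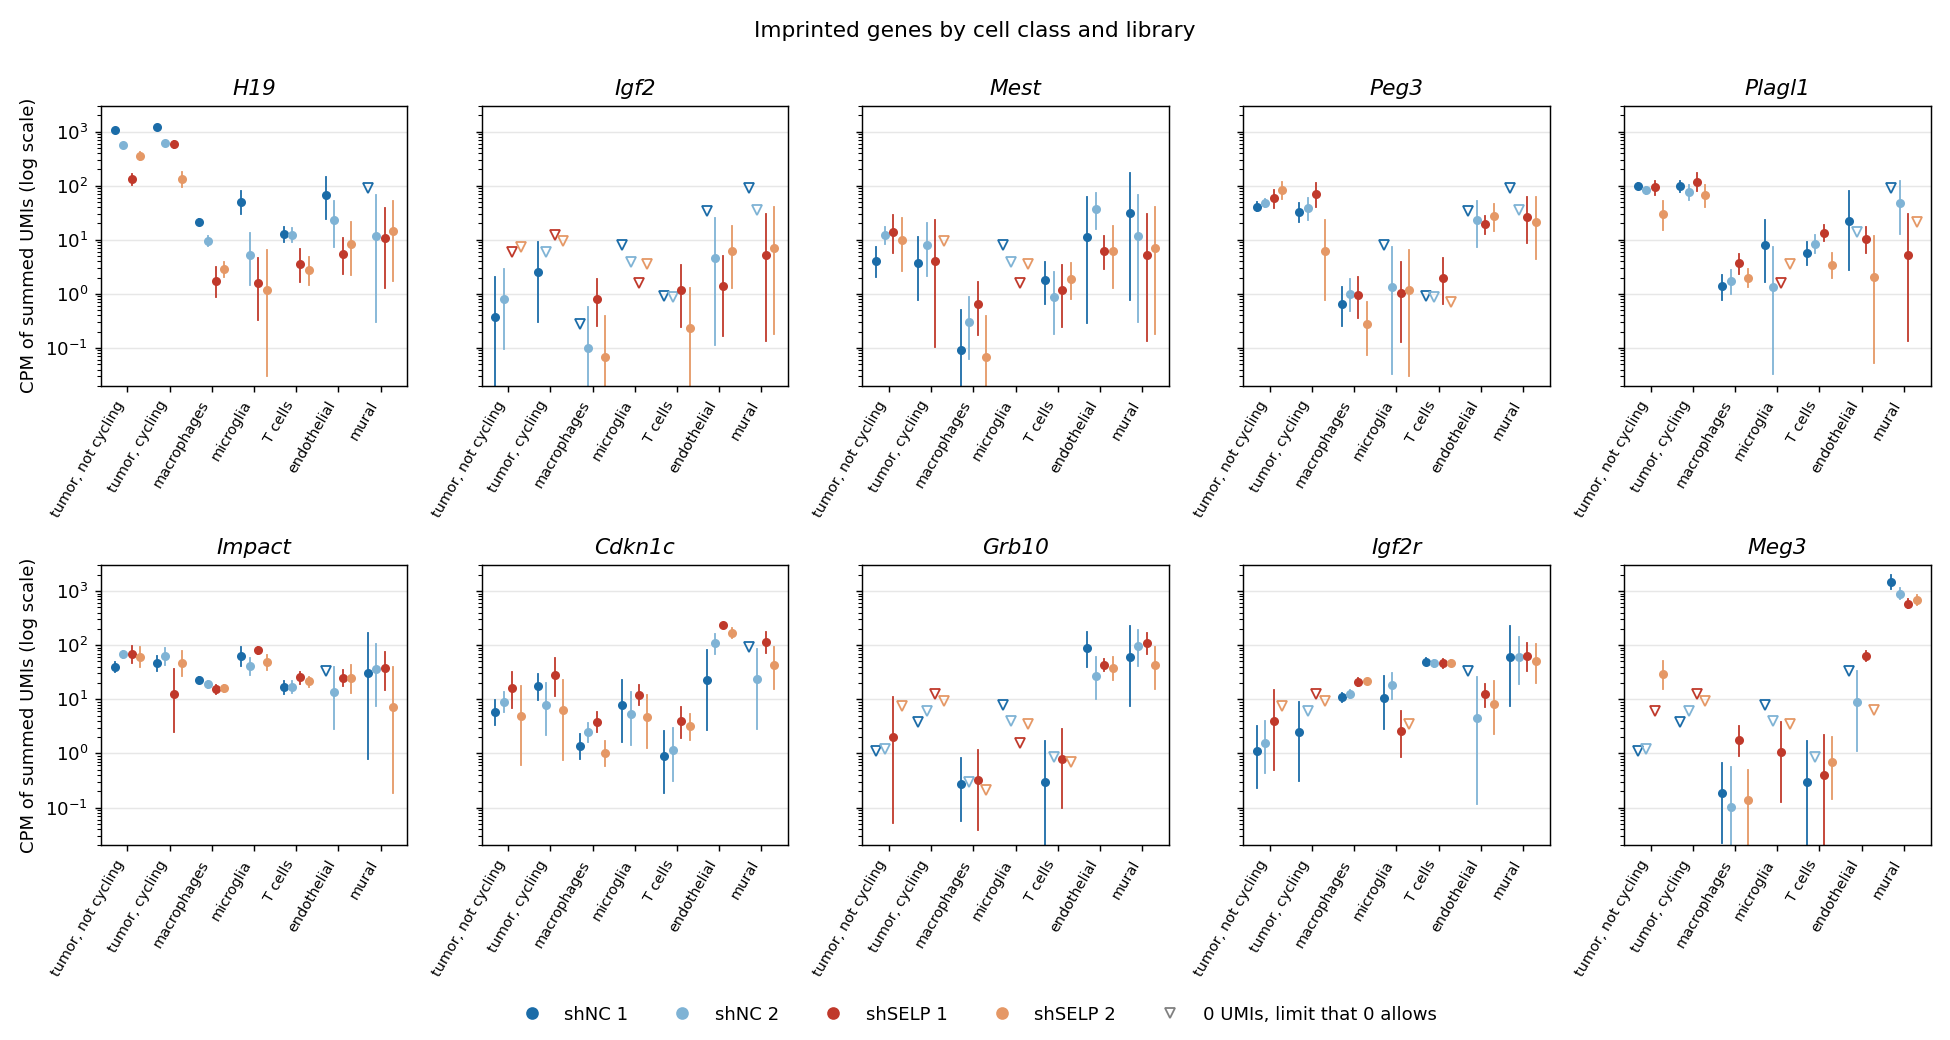
Levels in CPM (log scale) of the 10 imprinted genes by cell class, 1 point per library (blue shNC 1, light blue shNC 2, red shSELP 1, orange shSELP 2) with exact 95% Poisson intervals, and open triangles at the limit where no UMI was seen. H19 stood at 1109, 565, 279 and 260 CPM in tumor cells, Igf2r was higher in T cells than in tumor cells, and Meg3 was highest in mural cells.

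H19 is a long noncoding RNA made from the maternal copy, and its contrast between tumor and immune cells was wide. H19 stood at 1109, 565, 279 and 260 CPM in tumor cells (3872, 1717, 206 and 187 UMIs) and at 19.5, 10.2, 2.03 and 2.92 CPM in immune cells. All 4 tumor values lay above all 4 immune values. Over libraries, H19 averaged 553 ± 396 CPM (mean ± SD, n = 4 libraries) in tumor cells, 33.4 ± 43.6 in stromal cells and 8.67 ± 8.09 in immune cells. The spreads of the 2 host means overlapped. These SDs ignore the pairing by library, and the stromal value was the higher in each library. H19 and Igf2 are usually expressed together in fetal tissue, yet Igf2, the paternally expressed growth factor, gave only 3, 2, 0 and 0 UMIs in the tumor cells. In immune cells Igf2 gave 0, 1, 8 and 2 UMIs and in stromal cells 0, 1, 5 and 4. The tumor cells therefore carried H19 RNA with almost no Igf2 RNA, at a depth of 7988019 UMIs.

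Plagl1 encodes a zinc-finger protein that can halt the cell cycle and that regulates other imprinted genes. Its levels were 97.1, 80.7, 101 and 45.8 CPM in tumor cells against 2.54, 3.16, 5.04 and 2.25 CPM in immune cells, with no overlap. Peg3, a paternally expressed zinc-finger gene, stood at 39.3, 46.1, 62.2 and 48.6 CPM in tumor cells and at 0.456, 0.773, 1.33 and 0.287 CPM in immune cells. The Peg3 levels of the 4 tumor samples were close together, from 39.3 to 62.2 CPM. Mest, which encodes a hydrolase-like protein of the early embryo, was sparse, at 4.01, 11.5, 10.8 and 5.55 CPM in tumor cells from 14, 35, 8 and 4 UMIs. Immune cells had 0.521, 0.451, 0.619 and 0.430 CPM of Mest, below every tumor value.

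Cdkn1c encodes p57, an inhibitor of cyclin-dependent kinases made from the maternal copy. It stood at 8.59, 8.89, 20.3 and 5.55 CPM in tumor cells and at 1.69, 2.70, 5.39 and 1.67 CPM in immune cells. Each library had the tumor value above the immune value, although the lowest tumor value lay close to the highest immune value. Impact, which restrains the amino-acid sensor GCN2, stood at 41.3, 66.8, 50 and 55.5 CPM in tumor cells against 22.3, 19.6, 28.4 and 18.3 CPM in immune cells. Igf2r, the receptor that carries IGF2 to the lysosome, was the only 1 of the 7 tested members that was lower in tumor cells. It gave 5, 4, 2 and 0 UMIs there (1.43, 1.32, 2.70 and 0 CPM) against 19.3, 20.3, 22.6 and 25.3 CPM in immune cells, without overlap.

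In edgeR's quasi-likelihood test with Benjamini-Hochberg adjustment over 12333 genes, tumor cells exceeded immune cells by log2 5.61 (SE 0.23) for H19 and by log2 5.61 (SE 0.28) for Peg3, with adjusted p of 1.23e-09 and 5.01e-09. These are folds of 48.9 and 48.7. By the same quasi-likelihood test and Benjamini-Hochberg adjustment, Plagl1 was higher by log2 4.08 (SE 0.21, 17.0-fold, adjusted p = 6.75e-09) and Mest by log2 3.29 (SE 0.43, 9.77-fold, adjusted p = 2.76e-05). Smaller excesses passed edgeR's quasi-likelihood test with Benjamini-Hochberg adjustment for Cdkn1c (log2 1.37, SE 0.28, 2.58-fold, adjusted p = 0.000915) and Impact (log2 0.69, SE 0.20, 1.62-fold, adjusted p = 0.00799). Igf2r was lower by the same quasi-likelihood test and Benjamini-Hochberg adjustment, with log2 -4.46 (SE 0.33, adjusted p = 2.00e-07), a 22.1-fold gap in size. The direction was the same in all 4 libraries for each of these 7 genes. Without shNC 2 the value for Impact was log2 0.48 and edgeR's quasi-likelihood test with Benjamini-Hochberg adjustment no longer called it (adjusted p = 0.107).

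The 2 cell types differ in most of their genes, so these calls need the background beside them. Of the 12333 genes tested between tumor and immune cells, 65.7% were called (8106 genes), with 31.1% higher and 34.6% lower in tumor cells. Of the 10 members 7 were tested, and 6 were higher and 1 lower, with a median log2 ratio of 3.29 for the list and -0.06 for all genes. A gene sparse in immune cells enters the test only when tumor cells express it, so these list counts are description and not support. DESeq2 also called all 7.

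Droplets can carry RNA freed from other cells, so the host level of each member was set beside its tumor level. The immune level of H19 was 1.76, 1.81, 0.730 and 1.12% of the tumor level. Some tumor markers gave similar percentages, with 1.56, 0.936, 0.817 and 1.68% for Col9a2, 0.947, 0.630, 0.693 and 1.65% for Sox2 and 2.10, 2.14, 1.02 and 1.54% for Tubb3. H19 in immune cells thus stood near the percentages of these 3 markers, as drawn in the figure of host percentages. Peg3 (1.41% over all libraries) behaved alike, whereas Plagl1 reached 8.22% of the tumor level in T cells against 2.33% in macrophages, Cdkn1c 27.3% and Impact 40.3% in immune cells. Not every gene chosen as a tumor marker was low in immune cells. Sox9 was at 9.91%, Fabp7 at 9.77% and Mdk, with only 24 UMIs in tumor cells, at 36.4%, and Chd7 was higher in immune cells (196 CPM) than in tumor cells (139 CPM). The source of the host UMIs was not tested.

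**Figure D2:**
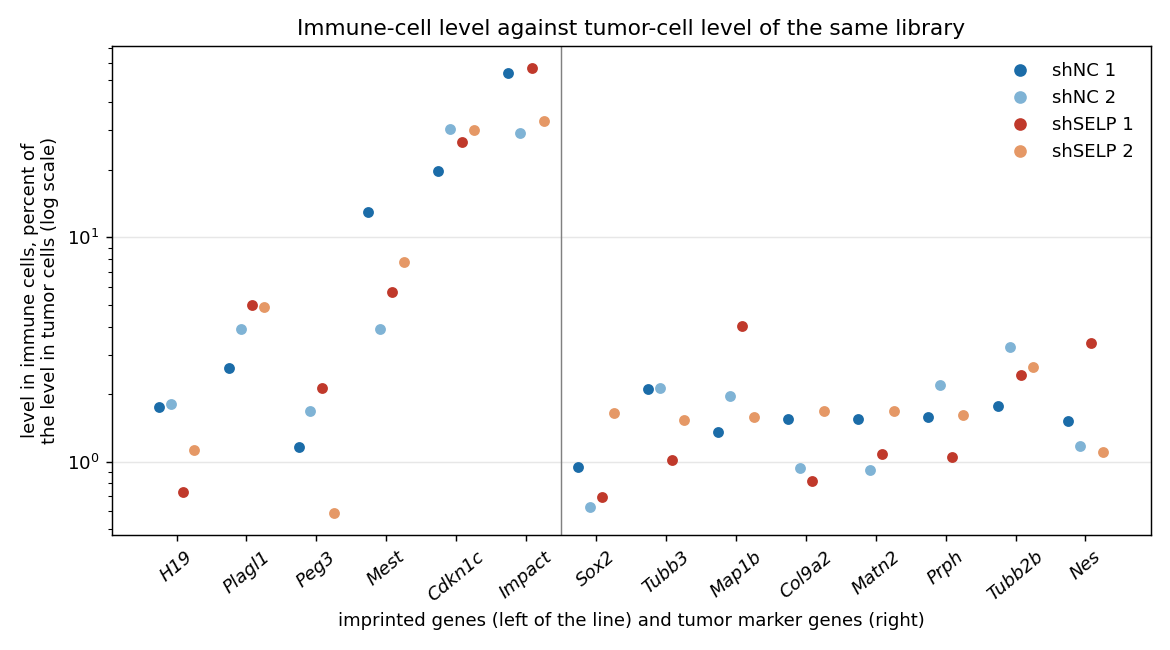
Level in immune cells as a percent of the level in tumor cells (log scale), 1 point per library, for 6 imprinted genes and 8 tumor marker genes. H19 (1.15% over all libraries) lay among the tumor markers, such as Col9a2 (1.06%) and Tubb3 (1.99%), and Impact (40.3%) and Cdkn1c (27.3%) lay above the 8 drawn; of the markers not drawn, Sox9 was at 9.91%, Fabp7 at 9.77% and Mdk at 36.4%, and Chd7 was higher in immune cells (196 CPM) than in tumor cells (139 CPM).

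Shares of cells were compared after thinning every cell to 2000 UMIs, since depth differed between classes and libraries. Tumor cells had median depths of 15543, 16110, 12104 and 3834 UMIs and macrophages 10548.5, 9450, 8921.5 and 14669. H19 was then seen in 59.4, 32.4, 21.6 and 10.5% of tumor cells, and without thinning in 79.8, 54.7, 32.2 and 15.2%. The share thus dropped with thinning in every library but kept its order. In macrophages H19 was seen in 3.41, 2.05, 0.173 and 0.562% of thinned and in 13.5, 9.78, 1.80 and 4.24% of unthinned cells. Cells below 2000 UMIs were left out, 9, 15, 8 and 23 tumor cells and 39, 48, 32 and 53 macrophages. The H19 share thus fell from library to library in the same order in tumor cells and nearly so in macrophages.

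Plagl1 was seen in 15.3, 13.8, 21.6 and 6.58% of thinned tumor cells and in 56.3, 45.3, 49.2 and 17.2% without thinning. Thinned macrophages had Plagl1 in 0.213, 0.481, 1.21 and 0.674% of cells. For Peg3 the thinned shares were 6.11, 10.6, 7.84 and 3.95% in tumor cells and at most 0.241% in macrophages, and the unthinned tumor shares were 30.3, 35.0, 32.2 and 11.1%. In shSELP 2, with its shallow tumor cells, the shares of both genes were the lowest of the 4, with thinning and without. Igf2r was seen in no thinned tumor cell of any library, and in 2.10, 1.97, 1.69 and 0% of unthinned ones.

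Stromal cells were next compared with immune cells of the same libraries. A different set of members stood out here, led by Meg3, Grb10 and Cdkn1c. Peg3 and Mest were also higher in stromal cells, and the excess of H19 was small. Plagl1, Igf2r and Impact were tested and not called. The classes were unequal in size, with only 28 and 41 stromal cells in the shNC libraries.

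Meg3 is a noncoding RNA made from the maternal copy of the Dlk1 cluster. In stromal cells it stood at 254, 254, 140 and 153 CPM (57, 77, 257 and 97 UMIs), and immune cells gave 3, 1, 20 and 10 UMIs. Grb10, an adaptor that dampens signaling by the insulin and IGF1 receptors, stood at 53.6, 46.1, 50.3 and 37.9 CPM in stromal cells and gave 4, 0, 7 and 0 UMIs in immune cells. Both genes were high in all 4 stromal samples with no overlap. Cdkn1c stood at 8.93, 85.7, 225 and 144 CPM in stromal cells, and its low value in shNC 1 came with the fewest cells. Each stromal value of Cdkn1c still exceeded the immune value of its own library.

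Peg3 reached 8.93, 16.5, 22.9 and 26.8 CPM in stromal cells, and Mest 8.93, 29.7, 9.83 and 6.31 CPM from 2, 9, 18 and 4 UMIs. Both lay above all their immune values. H19 stood at 98.2, 19.8, 6.01 and 9.47 CPM in stromal cells, but 16 of the 22 UMIs behind the shNC 1 value came from 1 cell sorted as a fibroblast. Plagl1 gave 22.3, 13.2, 10.9 and 1.58 CPM, Igf2r 67.0, 19.8, 17.5 and 18.9 CPM and Impact 17.9, 19.8, 33.3 and 26.8 CPM in stromal cells. Those 3 overlapped the immune values or differed in direction between libraries.

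In edgeR's quasi-likelihood test with Benjamini-Hochberg adjustment over 11964 genes, stromal cells exceeded immune cells by log2 7.83 (SE 0.63, adjusted p = 1.60e-05) for Meg3, 7.34 (SE 0.65, adjusted p = 2.90e-05) for Grb10 and 4.74 (SE 0.42, adjusted p = 3.03e-05) for Cdkn1c. By the same quasi-likelihood test and Benjamini-Hochberg adjustment, Peg3 was higher by log2 4.26 (SE 0.53, adjusted p = 0.000219) and Mest by log2 3.95 (SE 0.56, adjusted p = 0.000452). The direction held in all 4 libraries for these 5 genes. Leaving out shSELP 1 moved the ratio of Grb10 to log2 8.50 and that of Meg3 to 8.98, and leaving out shSELP 2 moved that of Peg3 to 3.67. The immune counts of Grb10 and Meg3 were so low that the size of these ratios depends on the prior count of the fit.

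H19 was higher in stromal than immune cells by log2 1.17 (SE 0.31, 4 of 4 libraries, adjusted p = 0.0115) in edgeR's quasi-likelihood test with Benjamini-Hochberg adjustment. This call rested on shNC 1, without which the H19 ratio was log2 0.80 and the adjusted p of edgeR's quasi-likelihood test with Benjamini-Hochberg adjustment 0.111. Plagl1 (log2 0.99, SE 0.55, adjusted p = 0.160), Igf2r (log2 -0.40, SE 0.37, adjusted p = 0.400) and Impact (log2 -0.36, SE 0.20, adjusted p = 0.172) were not called by edgeR's quasi-likelihood test with Benjamini-Hochberg adjustment. Average CPM of Impact (24.4 against 22.1) and of Igf2r (30.8 against 21.9) was the higher in stromal cells, against the sign of the fitted ratios, which are taken after TMM scaling. The Igf2r average rested on shNC 1, since in the other 3 libraries its CPM was lower in stromal cells. Without shNC 1, Igf2r was called lower by edgeR's quasi-likelihood test with Benjamini-Hochberg adjustment, at log2 -0.93 (adjusted p = 0.00757). Between stromal and immune cells 54.9% of all 11964 genes were called, 24.8% higher and 30% lower. Of the 10 members 9 were tested, 6 were higher, 0 lower and 3 not called, with medians of log2 3.95 for the list and -0.12 for all genes. Grb10 and Meg3 entered this test through the stromal cells alone, so the list counts are description and not support. DESeq2 called 6.

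Tumor cells were then set against stromal cells directly. H19, Plagl1, Peg3 and Impact were higher in tumor cells, and Grb10, Meg3, Igf2r and Cdkn1c were higher in stromal cells. The list therefore split evenly. Stromal cells are few in the shNC libraries, which makes these ratios less sure than those against immune cells.

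Grb10 gave 0, 0, 1 and 0 UMIs in tumor cells, against 12, 14, 92 and 24 in stromal cells. As a plain ratio of counts, 142 of 2991829 stromal UMIs against 1 of 7988019 tumor UMIs is 379 (95% counting interval 67.0 to 15079). Meg3 gave 12 UMIs in tumor cells, all from 1 cell of shSELP 2, so in 3 libraries it was not detected in the tumor cells. In edgeR's quasi-likelihood test with Benjamini-Hochberg adjustment over 7707 genes, tumor cells were lower than stromal cells by log2 -7.71 (SE 0.66, adjusted p = 2.56e-05) for Grb10 and log2 -6.79 (SE 1.02, adjusted p = 0.000652) for Meg3, in 4 of 4 libraries. Without shSELP 2 the fitted value for Meg3 was log2 -11.57, and without shSELP 1 that for Grb10 was log2 -9.09. With so few tumor UMIs, both fitted folds depend on the prior count.

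Igf2r and Cdkn1c were also lower in tumor than stromal cells, by log2 -4.48 (SE 0.60, adjusted p = 0.000331) and log2 -3.07 (SE 0.50, adjusted p = 0.00105) in edgeR's quasi-likelihood test with Benjamini-Hochberg adjustment. The Cdkn1c gap was small in shNC 1, with 8.59 CPM in tumor and 8.93 CPM in stromal cells, and large elsewhere. Leaving out shNC 1 moved Igf2r to log2 -3.68 and Cdkn1c to -3.60, and without shSELP 1 Cdkn1c was not tested. In the other direction, edgeR's quasi-likelihood test with Benjamini-Hochberg adjustment gave log2 4.62 (SE 0.36, 24.7-fold, adjusted p = 1.57e-05) for H19 and 3.06 (SE 0.36, 8.33-fold, adjusted p = 0.000150) for Plagl1. Peg3 was higher in tumor cells by log2 1.39 (SE 0.28, adjusted p = 0.00316) and Impact by log2 1.10 (SE 0.27, adjusted p = 0.00919) in edgeR's quasi-likelihood test with Benjamini-Hochberg adjustment. These 4 were higher in tumor cells in all 4 libraries. Without shNC 2, Impact was at log2 0.87 and not called by edgeR's quasi-likelihood test with Benjamini-Hochberg adjustment (adjusted p = 0.0542).

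Between tumor and stromal cells 49.2% of 7707 genes were called, 24.6% higher and 24.5% lower in tumor cells. Of the 10 members 8 were tested and all 8 were called, 4 in each direction, with medians of log2 -0.99 for the list and 0.02 for all genes. As above, members sparse in 1 class entered through the other, so these counts support nothing. DESeq2 called 8 as well. Mest (94 UMIs) and Igf2 (15 UMIs) were not tested here.

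Within host cells, each member had its own distribution. The SDs given here are between libraries and ignore that classes of the same library are paired. An overlap of spreads therefore does not show equal levels. Meg3 averaged 917 ± 412 CPM in mural cells (mean ± SD, n = 4 libraries), from 1504, 893, 583 and 690 CPM. It was above the 200 ± 62.2 CPM of all stromal cells, whose spread it did not overlap, but that sum includes the mural cells themselves. In endothelial cells 90 of 93 Meg3 UMIs came from 1 cell of shSELP 1, so endothelial cells as a class hardly expressed it. After thinning, Meg3 was seen in 66.7, 50, 52 and 65.2% of mural cells, and without thinning in 50, 77.8, 50 and 66.7%. Mural cells numbered only 4, 9, 72 and 24. Pooled over libraries and without thinning, Meg3 was also seen in 44.1% of fibroblasts and 23.5% of the 17 astrocytes.

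Grb10 was spread over several stromal classes. It averaged 77.8 ± 31.1 CPM in mural cells and 49.5 ± 27.6 CPM in endothelial cells, which did not differ beyond their spread. Fibroblasts, 34 cells in all, had Grb10 in 16.1% of thinned and 29.4% of unthinned cells, against 19% and 25.7% of mural and 7.49% and 16.4% of endothelial cells. The endothelial levels of Grb10 were 89.7, 27.3, 43.3 and 37.6 CPM. No Grb10 UMI was seen in microglia, oligodendrocytes or astrocytes.

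Cdkn1c averaged 133 ± 89.3 CPM in endothelial cells, 88.5 ± 58.7 in oligodendrocytes and 45.9 ± 50.4 in mural cells. Fibroblasts averaged 175 ± 152 CPM (n = 3 libraries). Those 4 means did not differ beyond their spread. Microglia (7.51 ± 3.41 CPM) and tumor cells (10.8 ± 6.48 CPM) had lower means, though not beyond the spread of mural cells. In endothelial cells Cdkn1c stood at 22.4, 109, 232 and 169 CPM, lowest in the library with 17 such cells, and these differences between libraries were not tested.

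Igf2r averaged 58.7 ± 5.87 CPM in mural cells and 47.5 ± 1.68 CPM in T cells. Below them came macrophages at 16.5 ± 5.58, microglia at 7.91 ± 8.34 and tumor cells at 1.36 ± 1.11 CPM, and macrophages did not differ from microglia beyond the spread. Not all lymphocyte and vessel classes had it alike. In thinned cells pooled over libraries Igf2r was seen in 0 of 131 B and plasma cells, 3.59% of NK cells and 1.73% of endothelial cells, and without thinning in 8.05, 6.13 and 4.57%. The T-cell values of Igf2r were 49.9, 46.1, 46.8 and 47.2 CPM, close together in all 4 libraries. Thinned T cells had Igf2r in 11.4, 10.1, 9.80 and 8.79% of cells and unthinned in 30.9, 25.9, 22.3 and 32.5%, at median depths of 5638, 5651, 4944 and 7539 UMIs and with 33, 17, 15 and 4 cells left out.

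Impact was found in every main class. It averaged 58.2 ± 17.5 CPM in microglia and 53.4 ± 10.7 CPM in tumor cells, which did not differ beyond their spread, and less in T cells (20.1 ± 4.15) and macrophages (18.3 ± 3.52), which did not differ either. Microglia had 63.3, 40.9, 80.4 and 48.2 CPM of Impact and macrophages 23.0, 19, 15.4 and 15.9 CPM, so the 2 myeloid classes did not overlap. Plagl1 stood at 5.72, 8.36, 13.5 and 3.49 CPM in T cells and at 1.38, 1.71, 3.68 and 2.00 CPM in macrophages, with 14 of the 23 UMIs of shSELP 1 macrophages from 1 cell. In astrocytes Plagl1 gave 1, 1, 6 and 9 UMIs from 17 cells in all. Peg3 was also seen in oligodendrocytes, with 0, 56.0, 42.4 and 29.7 CPM from 24 UMIs. These contrasts between host classes were not tested.

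H19 varied widely from tumor cell to tumor cell. It was seen in 55.9% of all tumor cells, and 48, 92, 40 and 84 tumor cells had no H19 UMI. The median cell carried 6.27, 0.491, 0 and 0 H19 UMIs per 10000, and the upper quartile was 17.4, 5.51, 1.19 and 0. The median cell therefore had no H19 UMI in either shSELP library. These cells were not thinned, and their median depths were 15543, 16110, 12104 and 3834 UMIs. A value of 0 in a shallow cell does not show absence. At the top, single cells held 125, 169, 51 and 92 H19 UMIs. The highest 10% of cells (24, 21, 6 and 10 cells) held 43.7, 65.1, 81.6 and 97.3% of the H19 UMIs of their library. In the shSELP libraries most H19 UMIs thus came from a handful of cells, as drawn in the figure of single tumor cells. How far depth shaped these shares was not tested.

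**Figure D3:**
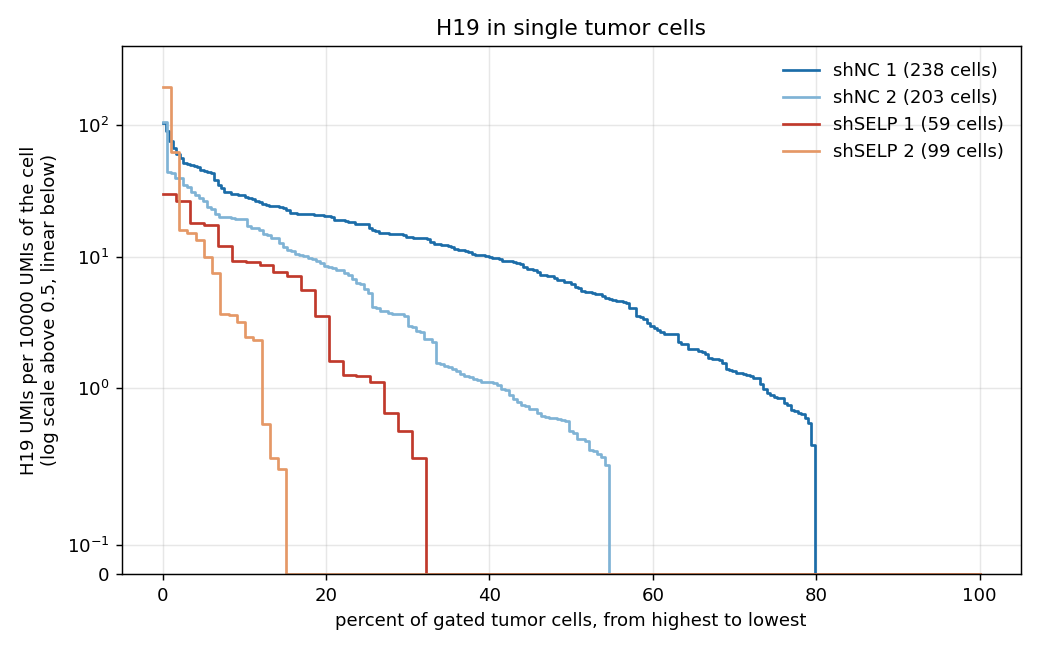
H19 UMIs per 10000 UMIs (log scale above 0.5, linear below) of single tumor cells ranked within each library against the percent of cells, for 238, 203, 59 and 99 cells of shNC 1, shNC 2, shSELP 1 and shSELP 2. The median cell had 6.27 in shNC 1 and 0.491 in shNC 2, and was at 0 in both shSELP libraries. Cells were not thinned, and median depths were 15543, 16110, 12104 and 3834 UMIs in the same order.

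Cycling tumor cells were compared with non-cycling ones of the same library, because Cdkn1c and Plagl1 can restrain the cell cycle. Only 4 members had enough UMIs for the test. None of them was called. Depth differed between them in some libraries, with medians of 14541, 13285, 12949 and 3588 UMIs in cycling and 15701.5, 16421, 11511 and 5888 UMIs in non-cycling cells.

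H19 stood at 1230, 609, 579 and 133 CPM in cycling and at 1074, 557, 131 and 359 CPM in non-cycling tumor cells, higher in cycling cells in 3 of 4 libraries. Plagl1 stood at 96.9, 75.8, 119 and 66.5 CPM in cycling and 97.2, 81.6, 92.8 and 29.7 CPM in non-cycling cells, higher in cycling cells in 2 of 4 libraries and lower in the other 2. Peg3 gave 32.7, 37.9, 69.7 and 6.33 CPM in cycling and 41.2, 47.7, 58.5 and 81.6 CPM in non-cycling cells, lower in 3 of 4 libraries. The last cycling value of Peg3 rests on 2 UMIs. Impact gave 46.6, 63.9, 12.3 and 47.5 CPM in cycling and 39.7, 67.4, 68.6 and 61.8 CPM in non-cycling cells. Cdkn1c, too sparse to test, stood at 17.6, 7.98, 28.7 and 6.33 CPM in cycling and 5.94, 9.07, 16.1 and 4.95 CPM in non-cycling cells, higher in cycling cells in 3 of 4 libraries.

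The cycling-to-non-cycling ratios in edgeR's quasi-likelihood test with Benjamini-Hochberg adjustment were log2 0.25 (SE 0.33, adjusted p = 0.727) for H19, 0.18 (SE 0.22, adjusted p = 0.697) for Plagl1, -0.34 (SE 0.30, adjusted p = 0.565) for Impact and -0.62 (SE 0.35, adjusted p = 0.328) for Peg3. Of all 5936 genes tested, 9.16% were called (544 genes, 325 higher and 219 lower). Of the 4 tested members edgeR called 0 and DESeq2 0, and 0 reached an unadjusted p under 0.05, with medians of log2 -0.08 for the list and -0.02 for all genes. The count of called genes was 321 without shNC 2 and 345 without shSELP 1. A missed threshold with so few cells does not show that the levels were equal.

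Pooled over libraries, the members were also followed along the cycle score. From the lowest to the highest of 5 bins (182, 173, 70, 88 and 86 cells), H19 ran 555, 840, 1008, 748 and 844 CPM and Plagl1 78.6, 87.9, 103, 97.4 and 77.9 CPM. Peg3 ran 44.9, 50.6, 49.9, 30.6 and 39.6 CPM over the same bins. None of the 3 moved steadily with the score, and the bins mix libraries in different proportions, so this is description only.

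The shSELP tumor cells were compared with shNC tumor cells next. H19 was lower in both shSELP libraries than in either shNC library, but the difference missed the threshold after adjustment. No other tested member came near it. Plagl1, Mest, Cdkn1c and Impact overlapped between genotypes, and Peg3 differed little. With 2 libraries per genotype the test has little power. Depth differed too, with a median of 3834 UMIs in shSELP 2 tumor cells.

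H19 stood at 1109 and 565 CPM in the shNC tumor cells and at 279 and 260 CPM in the shSELP tumor cells, or 837 ± 385 against 269 ± 13.3 CPM (mean ± SD, n = 2 libraries each). The lower shNC value was still above both shSELP values. Yet the 2 shNC libraries differed from each other by about the same ratio as the lower of them did from shSELP, and by more in CPM. In depth bins pooled over libraries, H19 was at 387 and 382 CPM in non-cycling and cycling tumor cells of the shallowest of 3 bins. It was at 837 and 994 CPM in the middle bin and 708 and 765 CPM in the deepest. The shSELP 2 library, with a median of 3834 UMIs per tumor cell, also had the lowest H19, at 260 CPM. These bins therefore do not separate depth from library. With cells thinned to 2000 UMIs, a fit that leaves out shallower cells, H19 had log2 -1.73 and was not called by edgeR's quasi-likelihood test with Benjamini-Hochberg adjustment (adjusted p = 0.0730). H19 in edgeR's quasi-likelihood test with Benjamini-Hochberg adjustment had log2 -1.64 (SE 0.29, 2 of 2 shSELP libraries below both shNC libraries, p = 0.000258, adjusted p = 0.0623). The values without shNC 1 and without shNC 2 were log2 -1.08 and -2.08, and both passed edgeR's quasi-likelihood test with Benjamini-Hochberg adjustment, with adjusted p of 0.0160 and 1.47e-20. Without shSELP 1 and without shSELP 2 H19 was at log2 -1.70 and -1.56 and was not called by edgeR's quasi-likelihood test with Benjamini-Hochberg adjustment (adjusted p of 0.132 and 0.172). With 1 library left in a genotype, the fit assumes that it varies like the other genotype. DESeq2 called H19 lower, at log2 -1.61 (adjusted p = 4.94e-05, Benjamini-Hochberg adjustment).

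For the other members the shSELP-to-shNC ratios in tumor cells by edgeR's quasi-likelihood test with Benjamini-Hochberg adjustment were log2 0.58 (SE 0.53, adjusted p = 0.601) for Cdkn1c and 0.39 (SE 0.24, adjusted p = 0.426) for Peg3. By the same quasi-likelihood test and Benjamini-Hochberg adjustment, Mest had log2 0.11 (SE 0.66, adjusted p = 0.947), Plagl1 -0.26 (SE 0.32, adjusted p = 0.698) and Impact -0.02 (SE 0.28, adjusted p = 0.977). Peg3 was higher in both shSELP libraries, and the other 4 overlapped between genotypes. Of all 9845 genes, 0.0813% were called (8 genes, 5 higher and 3 lower). Of the 6 members tested edgeR called 0 and DESeq2 1, and 1 reached an unadjusted p under 0.05, with medians of log2 0.05 for the list and -0.03 for all genes. Leaving out 1 library moved the 8 called genes to 61, 712, 28 and 49, without shNC 1, shNC 2, shSELP 1 and shSELP 2 in turn, so the count itself is not stable. With no filter other than 1 UMI, edgeR's quasi-likelihood test with Benjamini-Hochberg adjustment called 2 members, H19 (log2 -1.69, adjusted p = 2.00e-07) and Meg3 (log2 7.01, adjusted p = 0.00314), the latter from 12 UMIs of 1 cell.

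Split by cycling, H19 differed in the same direction in both kinds of tumor cell. In non-cycling tumor cells it was at 1074 and 557 CPM in shNC and 131 and 359 CPM in shSELP, without overlap. In cycling tumor cells it was at 1230 and 609 CPM in shNC and 579 and 133 CPM in shSELP, where the higher shSELP value nearly met the lower shNC value. The order of the 2 shSELP libraries was reversed between the 2 kinds of cell. By edgeR's quasi-likelihood test with Benjamini-Hochberg adjustment H19 had log2 -1.79 (SE 0.41, p = 0.00109, adjusted p = 0.130) in non-cycling and log2 -1.42 (SE 0.46, p = 0.00772, adjusted p = 0.107) in cycling tumor cells. Leaving out 1 library gave log2 -2.62 to -1.22 for H19 in non-cycling cells and -2.74 to -0.64 in cycling cells. By edgeR's quasi-likelihood test with Benjamini-Hochberg adjustment it was called in non-cycling cells without shNC 1, shNC 2 or shSELP 2 (adjusted p of 0.00106, 1.83e-16 and 8.31e-05) and in cycling cells without shNC 2 or shSELP 1 (adjusted p of 1.62e-06 and 3.50e-12). Without the remaining libraries it was not called.

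Peg3 in non-cycling tumor cells had log2 0.62 (SE 0.26, 2 of 2 shSELP libraries higher, p = 0.0374, adjusted p = 0.419) by edgeR's quasi-likelihood test with Benjamini-Hochberg adjustment. Of 9311 genes 0.0644% were called in non-cycling cells (6 genes, 5 higher and 1 lower). Among the 6 members tested there edgeR called 0 and DESeq2 0, and 2 reached an unadjusted p under 0.05, with medians of log2 0.41 for the list and -0.01 for all genes. In cycling cells 1.86% of 5438 genes were called (101 genes, 33 higher and 68 lower). Of the 4 members tested in cycling cells edgeR called 0 and DESeq2 0, and 1 reached an unadjusted p under 0.05, with medians of log2 -0.40 and -0.02. The counts of called genes swung without shNC 1, shNC 2, shSELP 1 and shSELP 2 to 60, 302, 32 and 190 in non-cycling cells and to 33, 301, 552 and 58 in cycling cells.

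Whether the response differed between cycling and non-cycling tumor cells was tested as an interaction. This fit had no library term, although the cycling and non-cycling sums of a library came from the same preparation. For H19 it was log2 0.44 (SE 0.77, adjusted p = 0.910) by edgeR's quasi-likelihood test with Benjamini-Hochberg adjustment, and for Impact log2 -0.998 (SE 0.62, adjusted p = 0.768). Peg3 had log2 -0.57 (SE 0.74) and Plagl1 log2 0.63 (SE 0.57). Of all 6865 genes 0.0146% were called (1 gene). Of the 4 members tested edgeR called 0 and DESeq2 0, and 0 reached an unadjusted p under 0.05, with medians of log2 -0.06 for the list and 0.01 for all genes. Without shSELP 1, and again without shSELP 2, no gene was called. The SEs, which do not use the pairing of sums within a library, are large against the values. A difference in response of moderate size would have been missed.

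In macrophages, H19 and Igf2r differed most between genotypes, in opposite directions, and neither passed after adjustment. H19 stood at 21.0 and 9.55 CPM in shNC and 1.76 and 2.83 CPM in shSELP macrophages, with 46 of the shNC 1 UMIs from 1 cell. Igf2r stood at 10.9 and 12.5 CPM in shNC and 20.8 and 21.7 CPM in shSELP macrophages, from 118, 124, 130 and 314 UMIs. Neither gene overlapped between genotypes. The H19 difference had the direction seen in the tumor cells of the same libraries. The cause of either difference was not tested.

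By edgeR's quasi-likelihood test with Benjamini-Hochberg adjustment in macrophages, Igf2r had log2 0.92 (SE 0.14, 2 of 2 shSELP libraries higher, p = 0.000184, adjusted p = 0.0550) and H19 log2 -2.60 (SE 0.44, 2 of 2 lower, p = 0.000401, adjusted p = 0.0854). DESeq2 called both, at log2 0.92 (adjusted p = 0.0398) and -2.64 (adjusted p = 4.19e-06) with Benjamini-Hochberg adjustment. Leaving out 1 library kept the Igf2r ratio between log2 0.85 and 0.99, and edgeR's quasi-likelihood test with Benjamini-Hochberg adjustment called Igf2r without shSELP 1 (log2 0.97, adjusted p = 0.0417) and H19 without shNC 2 (log2 -3.07, adjusted p = 0.0222), and neither when another library was left out. The Igf2r ratio thus depended little on any single library. The share of thinned macrophages with Igf2r was 1.49, 2.41, 4.50 and 3.15%, and of unthinned ones 9.61, 10.8, 15.4 and 21.9%. Both shares were higher in the shSELP libraries. Impact was at 23.0, 19, 15.4 and 15.9 CPM, with log2 -0.38 (SE 0.15, p = 0.0389, adjusted p = 0.376) by edgeR's quasi-likelihood test with Benjamini-Hochberg adjustment. Plagl1 (log2 0.85, SE 0.41) and Cdkn1c (log2 0.20, SE 0.62) were not called either.

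Of 11082 genes tested in macrophages 0.325% were called (36 genes, 20 higher and 16 lower). Of the 5 members tested edgeR called 0 and DESeq2 2, and 3 reached an unadjusted p under 0.05, with medians of log2 0.20 for the list and 0.00 for all genes. The 36 called genes became 1 without shNC 1, 103 without shSELP 1 and 151 without shSELP 2.

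In T cells H19 was lower in shSELP, at 12.6 and 12.4 CPM in shNC against 3.57 and 2.79 CPM in shSELP. This was the direction seen in the tumor cells of the same libraries. The shSELP libraries also held fewer tumor cells (59 and 99 against 238 and 203). In immune cells as a whole, H19 stood near the percentages of the tumor level that some tumor markers gave. The source of the H19 UMIs in T cells was not tested. No T cell held more than 2 H19 UMIs. Cdkn1c stood at 0.903 and 1.15 CPM in shNC and 3.96 and 3.25 CPM in shSELP T cells, from 3, 4, 10 and 14 UMIs. Impact stood at 16.5 and 17.0 CPM against 25.4 and 21.4 CPM. None of these 3 overlapped between genotypes, and Igf2r was level. In edgeR's quasi-likelihood test with Benjamini-Hochberg adjustment H19 had log2 -2.005 (SE 0.33, p = 0.000153, adjusted p = 0.125), Cdkn1c log2 1.74 (SE 0.56, p = 0.0111, adjusted p = 0.399) and Impact log2 0.46 (SE 0.20, p = 0.0492, adjusted p = 0.544), each in 2 of 2 shSELP libraries.

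Leaving out any 1 library kept H19 in T cells between log2 -2.17 and -1.77, and each of the 4 values passed edgeR's quasi-likelihood test with Benjamini-Hochberg adjustment (adjusted p of 0.0128, 0.00585, 0.000311 and 0.0125 without shNC 1, shNC 2, shSELP 1 and shSELP 2). Of 9811 genes 0.0408% were called in T cells (4 genes, 2 higher and 2 lower), and 153, 413, 133 and 291 without the same libraries in turn. Of the 5 members tested edgeR called 0 and DESeq2 0, and 3 reached an unadjusted p under 0.05, with medians of log2 0.14 for the list and 0.00 for all genes.

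In microglia only Impact had enough UMIs for the filter, at 63.3 and 40.9 CPM in shNC and 80.4 and 48.2 CPM in shSELP, which overlapped. Its ratio was log2 0.43 (SE 0.31, adjusted p = 0.585) by edgeR's quasi-likelihood test with Benjamini-Hochberg adjustment. Of 6602 genes 0.0454% were called in microglia (3 genes, 0 higher and 3 lower), and 64, 32, 67 and 103 without shNC 1, shNC 2, shSELP 1 and shSELP 2. Of the 1 member tested edgeR called 0 and DESeq2 0, and 0 reached an unadjusted p under 0.05, and the median of all genes was log2 0.00. Igf2r in microglia gave 4, 14, 5 and 0 UMIs, or 10.5, 18.5, 2.65 and 0 CPM, lower in shSELP. With no filter other than 1 UMI, 7 members were tested between shSELP and shNC microglia. edgeR's quasi-likelihood test with Benjamini-Hochberg adjustment called H19 (log2 -3.85, adjusted p = 1.82e-05) and Igf2r (log2 -3.03, adjusted p = 0.00592) lower in shSELP. These values rest on 27 and 23 UMIs. With the usual filter, H19 was tested only on leaving out shNC 2, shSELP 1 or shSELP 2, at log2 -5.00, -4.08 and -3.84. In microglia 11 of the 19 H19 UMIs of shNC 1 came from 1 cell.

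The shSELP 1 library also differed in its host cells, which bears on every comparison of genotypes. Mural markers summed to 44.5 CPM in its immune cells and 33.8 CPM in its tumor cells, against 0.912, 2.83 and 2.29 CPM in the immune cells and at most 4.94 CPM in the tumor cells of shNC 1, shNC 2 and shSELP 2, and this was not tested. It also held 314 of the 438 endothelial cells. Of the members high in stromal cells, Meg3 had 20 of its 34 immune UMIs and Grb10 7 of 11 in shSELP 1, and Cdkn1c had its highest immune level there (5.39 CPM).

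The CD11b+ libraries of day 21 gave a separate look at macrophages, with 2862 cells each and 12628177 UMIs in shNC and 11445676 UMIs in shSELP. For 7 of the shSELP sequencing entries a description line named the negative control, whereas title, source name and genotype gave the knockdown, which was used. With 1 library per genotype no test was made, and the exact Poisson intervals cover counting error only. Igf2r in macrophages (2353 and 2525 cells) was at 5.32 CPM (95% interval 4.02 to 6.90, 56 UMIs) in shNC and 14.4 CPM (12.1 to 16.9, 144 UMIs) in shSELP. As in the mix, the shSELP value was the higher. Impact was at 16.6 (14.2 to 19.3) against 14.0 CPM (11.7 to 16.5) and H19 at 1.80 (1.09 to 2.82) against 2.19 CPM (1.37 to 3.32), with overlapping intervals, so the lower H19 of shSELP macrophages in the mix was not seen here. In microglia (76 and 56 cells) Impact was at 48.3 CPM (29.5 to 74.7, 20 UMIs) in shNC and 7.09 CPM (0.859 to 25.6, 2 UMIs) in shSELP, without overlap and opposite to the direction in the mix. Over all kept cells Cdkn1c gave 17 and 14 UMIs, Plagl1 14 and 11, Peg3 1 and 9, and Mest 0 and 1. Igf2, Grb10 and Meg3 were not analysed in this experiment.

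To see which genes shared the pattern of each member, Pearson correlations of log levels were taken over 50 sums of a library and class with at least 20000 UMIs, for 13324 genes. The sums share libraries and are not independent, so no p-value is given. H19 was most like Myo5b (r = 0.900), Pet2 (0.891) and Bex1 (0.891), Peg3 most like Chic1 (0.835), Map1b (0.802) and Col9a3 (0.801), and Plagl1 most like Zfp428 (0.846) and Cd109 (0.840). Grb10 followed Col4a2 (0.955) and Pcdh19 (0.945), and Meg3 followed Rarres2 (0.928) and Sod3 (0.911). Cdkn1c was most like Fam13c (0.840) and Zbtb16 (0.819). Igf2r and Impact, spread over many classes, reached only 0.658 (Prkar1a) and 0.661 (Cnpy4). Among members, H19 went with Plagl1 (0.588), Peg3 with Plagl1 (0.552) and Grb10 with Meg3 (0.657).

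Imprinted genes outside the list of 10 were counted for comparison, 42 of them in the table. Between tumor and immune cells 22 were tested, 10 were higher and 3 lower in tumor cells, with a median of log2 0.22 against -0.06 for all genes. Over all genes 65.7% were called, 31.1% higher and 34.6% lower. Sgce was at 40.4, 33.6, 47.3 and 38.9 CPM in tumor cells and 1.89, 2.64, 9.81 and 3.39 CPM in immune cells, without overlap. Phlda2, next to Cdkn1c, was at 10.9, 19.4, 18.9 and 26.4 CPM in tumor cells and at most 1.43 CPM in immune cells. Sgce did not set tumor cells apart from stromal cells, where its ratio was log2 0.11 and not called, and Phlda2 was not tested there. In edgeR's quasi-likelihood test with Benjamini-Hochberg adjustment, Phlda2 had log2 3.62 (SE 0.35, adjusted p = 2.13e-06), Sgce log2 2.87 (SE 0.30, adjusted p = 3.84e-06) and Usp29, the neighbor of Peg3, log2 4.85 (SE 0.78, adjusted p = 0.000163), each in all 4 libraries. Tspan32 was the most strongly lower, at log2 -4.03 (SE 0.33, adjusted p = 4.00e-07) by edgeR's quasi-likelihood test with Benjamini-Hochberg adjustment.

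Genes linked to IGF signaling were counted too, 15 of them in the mix, because H19, Igf2, Igf2r and Grb10 all act on this pathway. Besides genes that carry IGF signals, the list holds Igf2bp1, Igf2bp2, Igf2bp3 and Hmga2. Between tumor and immune cells 12 were tested, 7 higher and 4 lower in tumor cells. Their median was log2 1.25 against -0.06 for all genes, of which 31.1% were higher and 34.6% lower. Against stromal cells 10 were tested, 3 higher and 6 lower in tumor cells. Their median was log2 -2.82 against 0.02 for all genes, of which 24.6% were higher and 24.5% lower. Between stromal and immune cells 12 were tested, 6 higher and 1 lower in stromal cells. The median there was log2 2.42 against -0.12 for all genes, of which 24.8% were higher and 30% lower. Igf1r, the receptor through which IGF2 acts, was at 78.2, 51.7, 52.7 and 43.0 CPM in tumor cells against 6.84, 5.67, 16.9 and 9.08 CPM in immune cells and 196, 339, 651 and 652 CPM in stromal cells. Hmga2, a fetal chromatin gene, was at 203, 151, 151 and 119 CPM in tumor cells and at most 4.11 CPM in immune cells. By edgeR's quasi-likelihood test with Benjamini-Hochberg adjustment tumor cells exceeded immune cells by log2 5.40 (SE 0.29, adjusted p = 1.04e-08) for Hmga2 and by log2 2.13 (SE 0.28, adjusted p = 3.28e-05) for Igf1r, in 4 of 4 libraries. Igf1r was lower in tumor than stromal cells, with log2 -2.86 (SE 0.41, 4 of 4 libraries, adjusted p = 0.000488) by the same quasi-likelihood test and Benjamini-Hochberg adjustment. The tumor cells thus made Igf1r RNA with almost no Igf2 RNA and almost no Grb10 RNA.

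H19 is also the precursor of a microRNA, whose mature arms lie inside the transcript (GRCm38/mm10, minus strand). They are shown because any effect of H19 through them would depend on their seeds, bases 2 to 8, which are in capitals. The microRNAs themselves were not measured. The 5' arm is at chr7:142577112-142577133 and the 3' arm at chr7:142577078-142577099, each of 22 bases.
mmu-miR-675-5p: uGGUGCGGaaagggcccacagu
mmu-miR-675-3p: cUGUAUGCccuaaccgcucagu

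Promoters of 3 members with the hexamer named below are shown as 300 bases each (GRCm38/mm10), Plagl1 as a gene called higher in tumor cells and Meg3 and Grb10 as genes called higher in stromal cells. Capitals mark the hexamer TGCCGC, or GCGGCA when read on the other strand, the core site of the imprint-keeping protein ZFP57, which binds it when methylated. Among 32851 mouse promoters of this length 11.6% had at least 1 such hexamer, so its presence is common and its methylation was not measured. It was missing from the promoter of Peg3, also called higher in tumor cells, from that of Igf2r, and from the other promoter entry of Meg3 and of Grb10, none of which is shown. The hexamer is also in promoters not shown, 2 in each of 2 entries of Mest and 1 in an entry of Igf2, and 1.53% of all promoters had at least 2. The Plagl1 promoter (chr10:13090582-13090881, plus strand) had 26 CpG pairs and the Grb10 promoter (chr11:12037371-12037670, minus strand) 45, and that of Meg3 (chr12:109540746-109541045, plus strand) had 13, against a median of 7.
Plagl1: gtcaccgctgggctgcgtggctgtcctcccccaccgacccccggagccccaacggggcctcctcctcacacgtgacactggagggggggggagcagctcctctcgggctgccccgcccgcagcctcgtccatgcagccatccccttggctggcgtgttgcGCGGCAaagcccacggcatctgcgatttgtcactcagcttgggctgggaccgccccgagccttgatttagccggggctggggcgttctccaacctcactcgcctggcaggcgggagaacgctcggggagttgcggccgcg
Meg3: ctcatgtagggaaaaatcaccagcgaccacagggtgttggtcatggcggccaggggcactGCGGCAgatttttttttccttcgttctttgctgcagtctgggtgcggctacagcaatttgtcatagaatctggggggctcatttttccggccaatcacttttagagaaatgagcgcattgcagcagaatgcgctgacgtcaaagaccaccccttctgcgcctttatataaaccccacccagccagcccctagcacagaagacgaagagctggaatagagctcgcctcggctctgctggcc
Grb10: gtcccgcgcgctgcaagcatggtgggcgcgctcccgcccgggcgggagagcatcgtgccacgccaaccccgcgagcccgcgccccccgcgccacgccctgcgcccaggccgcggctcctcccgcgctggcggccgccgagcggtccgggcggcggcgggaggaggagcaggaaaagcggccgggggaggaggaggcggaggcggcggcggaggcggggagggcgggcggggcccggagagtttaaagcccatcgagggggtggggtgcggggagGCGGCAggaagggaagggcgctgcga

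Across the 4 libraries, members differed in the class that held them. H19, Plagl1 and Peg3 were higher in tumor cells than in immune or stromal cells. Meg3, Grb10 and Cdkn1c were higher in stromal cells than in either, with almost no Meg3 or Grb10 in the tumor cells. Mest was higher in both tumor and stromal cells than in immune cells, Igf2r was low in tumor cells, Impact was found in every main class, and Igf2 was hardly seen anywhere. With all 4 libraries, no block, the usual filter and a cycling limit of 20, edgeR called no member between shSELP and shNC cells. With a cycling limit of 10, 1 of 5 members tested was called in cycling tumor cells. H19, Igf2r or Meg3 also passed in some other settings. Lower H19 in tumor cells and macrophages and higher Igf2r in macrophages came nearest to a call, and DESeq2 called these 3.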

How the data were processed

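UMI counts per gene and cell were used as deposited; per the authors, Cell Ranger 1.3 and mm10 made them, with a filter on genes and mitochondrial counts and a random draw of cells. The 10 members and the comparison lists were chosen with earlier results of these data known. Cells were kept from 500 genes upward and up to 10% mitochondrial UMIs and sorted by marker sets, and UMIs were summed per library and class. edgeR 4.0.16 (filterByExpr, TMM normalization, quasi-likelihood F test, SE from the F statistic) and DESeq2 1.42.0 ran in R 4.3.3. Library was the block between classes, but not in the interaction. Seurat 5.3.0 gave the clusters, and Python 3.11.15 with numpy 2.4.6 and scipy 1.17.1 the rest. The pipeline was tested on simulated data. Of the 42 other imprinted and 15 IGF genes, those named had at least 20 UMIs and were among the 5 strongest called per direction or are neighbors of members. Coordinates are GENCODE M21. H19 and Cdkn1c promoters were not analysed here. Libraries number 2 per genotype, so small differences go unseen.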

Additional observations from a re-analysis of the deposited data

Results flagged for a closer look

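In 2 places a member moved differently between genotypes in 2 host classes, and these differences were not tested. For Igf2r the log2 difference between macrophages and microglia was 3.997: macrophages had more Igf2r in shSELP and microglia less, from 4, 14, 5 and 0 microglial UMIs in shNC 1, shNC 2, shSELP 1 and shSELP 2. For Impact the log2 difference between macrophages and T cells was -0.87, with lower macrophage and higher T-cell levels in shSELP. Neither value is a difference of the main fitted ratios printed above. Igf2r in microglia was not tested with the usual filter and all libraries.

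The CD11b+ experiment of day 21 has 1 library per genotype and entered no test. Igf2r was at 14.8 CPM in all kept shSELP cells against 6.62 CPM in shNC, and at 14.4 against 5.32 CPM in macrophages, and in the mix Igf2r was also higher in shSELP macrophages. A description line of 7 of the CD11b+ shSELP sequencing entries named the negative control; title, source name and genotype gave the knockdown, which was used. H19 was at 81.5 CPM in shSELP microglia against 2.42 CPM in shNC, but all 23 UMIs came from 1 of 56 cells. Counting error was the only spread available for these values, and they were not tested. Impact was at 48.3 CPM in shNC and 7.09 CPM in shSELP CD11b+ microglia, from 20 and 2 UMIs, and was not tested.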

How the results depend on the processing

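Each comparison was refitted under other settings, and the cause of any difference was not tested. The other cycling limits and every alternative for the interaction were chosen after the data had been seen. With the cycling limit of 10 per 10000 UMIs, 1 of 5 members tested was called between genotypes in cycling tumor cells. When 1 library is left out, the lone library of a genotype is assumed to vary like the other genotype.

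Counts of called genes moved as follows. Thinning cells to 2000 UMIs gave 4896 genes for tumor against immune cells and 1440 for tumor against stromal cells. For cycling against non-cycling tumor cells, 544 became 321 to 635 on leaving out 1 library, 108 when thinned, 305 without the library block and 310 with a limit of 30 per 10000 UMIs.

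For shSELP against shNC in all tumor cells, 8 became 28 to 712 on leaving out 1 library, 111 with DESeq2, 583 without the filter, 15 when thinned, 5 with clusters and 370 with library number as block. In non-cycling tumor cells 6 became 32 to 302 on leaving out 1 library, 31 with DESeq2, 0 without the filter, 1 when thinned, 3 with clusters, 1 with the stricter gate and 98 with the block. In cycling tumor cells 101 became 33 to 552 on leaving out 1 library, 47 with DESeq2, 350 without the filter, 4 when thinned, 20 with clusters, 12 with the stricter gate, 231 and 61 with cycling limits of 10 and 30.

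In macrophages 36 became 1 to 151 on leaving out 1 library, 107 with DESeq2, 597 without the filter, 4 when thinned, 6 with clusters, 4 with the stricter gate and 281 with the block. In microglia 3 became 32 to 103 on leaving out 1 library, 14 with DESeq2, 218 without the filter, 5 when thinned, 9 with the stricter gate and 0 with the block. In T cells 4 became 133 to 413 on leaving out 1 library, 16 with DESeq2, 305 without the filter and 12 with the block. The interaction went from 1 to 0 to 1 on leaving out 1 library and to 0 when thinned, with clusters, with the stricter gate and with limits of 10 and 30. Counts this unstable mean that the number of genes called between genotypes says little by itself.

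Library numbers were used as block only here. Deviations of same-numbered libraries correlated at r = -0.03 in tumor cells, -0.05 in macrophages, 0.04 in microglia and 0.01 in T cells, so the numbers carry no visible pairing. With the block, log2 for H19 was -1.56 in all tumor cells, -1.81 in non-cycling and -1.58 in cycling tumor cells and -2.42 in macrophages, and Igf2r in macrophages was 0.91; all 5 passed edgeR's quasi-likelihood test with Benjamini-Hochberg adjustment (adjusted p of 0.000328, 0.0164, 0.0275, 0.000326 and 0.00378). H19 in T cells (-1.995 with the block) did not, with adjusted p of 0.110. Over all settings Igf2r in macrophages ran from log2 0.69 to 1.02. H19 in stromal against immune cells lost its call when thinned (log2 0.88), with the stricter gate (0.52) and without the library block (0.60).

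Some member values that were not called changed sign between settings. H19 between cycling and non-cycling tumor cells ran from log2 -0.26 to 0.64 on leaving out 1 library and was -0.24 when thinned. For shSELP against shNC in all tumor cells, leaving out 1 library gave -0.65 to 1.24 for Cdkn1c, -0.46 to 0.53 for Mest, -0.96 to 0.21 for Plagl1 and -0.35 to 0.31 for Impact. There Peg3 was -0.65 when thinned, Mest -0.32 with the stricter gate, and Impact 0.22 when thinned and 0.00055 with the block.

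In non-cycling tumor cells leaving out 1 library gave -0.66 to 1.13 for Cdkn1c, -1.66 to 0.072 for Plagl1 and -0.054 to 0.66 for Impact. In cycling tumor cells Peg3 ran from -2.38 to 1.02 and was 0.073 with DESeq2, 0.0145 without the filter, 0.0073 with the stricter gate and 0.51 with a limit of 30. Plagl1 there ran from -0.34 to 0.48 and was -0.11 with clusters, -0.37 with a limit of 10 and -0.71 with a limit of 30. The cycling shSELP 2 value of Peg3 rests on 2 UMIs.

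In macrophages Cdkn1c ran from -0.82 to 1.01 on leaving out 1 library. In microglia Impact ran from -0.029 to 0.70 and was -0.45 when thinned. In T cells Plagl1 ran from -1.03 to 0.96 and was -0.68 when thinned, and Igf2r ran from -0.083 to 0.028. The interaction of H19 ran from -1.45 to 1.99 and was -0.36 when thinned, -0.34 with clusters and -0.31 with a limit of 10. That of Peg3 ran from -3.18 to 0.62 and was 0.087 with a limit of 30, and that of Plagl1 was -0.088 and -0.46 with limits of 10 and 30.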

Other observations

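Between stromal and immune cells, 26 of the 42 other imprinted genes were tested, 16 were higher and 3 lower in stromal cells, with a median of log2 1.09 against -0.12 for all genes, of which 24.8% were higher and 30% lower. Asb4 stood at 26.8, 16.5, 102 and 58.4 CPM in the stromal cells of shNC 1, shNC 2, shSELP 1 and shSELP 2, and Ddc, the neighbor of Grb10, at 8.93, 56.0, 102 and 126 CPM. Between tumor and stromal cells 15 were tested, 1 was higher and 6 lower in tumor cells, with a median of log2 -0.05 against 0.02 for all genes, of which 24.6% were higher and 24.5% lower.

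Kcnq1ot1, the noncoding RNA that silences Cdkn1c on the paternal copy, stood at 180, 163, 139 and 94.4 CPM in tumor cells and at 37.4, 33.8, 51.3 and 25.3 CPM in immune cells. Airn, which overlaps Igf2r, gave 17, 22, 4 and 0 UMIs in tumor cells, where Igf2r gave 5, 4, 2 and 0. If strands were not kept apart, some of these UMIs could belong to the other gene.

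Igfbp2 was at 0, 6.25, 115 and 5.55 CPM in tumor cells, so its excess over immune cells rested mainly on shSELP 1. Igf2bp3, which binds Igf2 RNA, was at 51.6, 45.4, 28.4 and 31.9 CPM in tumor cells and at most 7.16 CPM in immune cells, lower in both shSELP libraries than in either shNC library; it was not called between genotypes.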
